A study of Homo sapiens with 6 samples.

Results

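The genes described here encode 9 enzymes or enzyme subunits of the tricarboxylic acid (TCA) cycle: CS, IDH3A, IDH2, IDH1, OGDH, SUCLG1, SUCLA2, FH and MDH2. They were taken by gene symbol from a table of 60605 genes, each symbol matched 1 row, and all 9 passed the filter on low values that left 12865 genes for testing. Expression was measured by RNA sequencing of HepG2, a human liver cancer cell line, in 6 libraries. In 3 libraries (sh-control, treatment ctrl) the cells carried a lentivirus with a control short hairpin RNA, and in 3 (sh-circFTO, treatment circFTO KD) the lentivirus carried a hairpin directed at circFTO, a circular RNA of the FTO gene. All 6 are labelled genotype WT, were grown in DMEM with serum, and come from 1 cell line, with 1 hairpin against circFTO named. No label states that libraries of one group are separate cultures, so the p-values may reflect technical spread alone.

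The TCA cycle runs in the mitochondrial matrix. It takes in acetyl groups from pyruvate and fatty acids, releases carbon dioxide and hands electrons to the respiratory chain, and its intermediates also feed the synthesis of lipids, glucose and amino acids. Liver cells draw on it for gluconeogenesis and for nitrogen disposal. IDH1 works outside that matrix, in the cytosol and in peroxisomes, where it makes NADPH from isocitrate.

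Of the 9 genes, 6 were lower in the sh-circFTO libraries. OGDH (33.5% lower), IDH1 (31.3%), FH (23.9%) and CS (22.5%) changed most, and MDH2 (14.0%) and SUCLG1 (13.8%) changed less. SUCLA2, IDH2 and IDH3A did not pass the test. By edgeR's quasi-likelihood test 0 members were called higher, 0 were higher at an unadjusted p under 0.05, and DESeq2 also called 0 higher and 6 lower. Under library size as the only scaling, 4 members were lower (OGDH, IDH1, FH and CS) and 1, IDH3A, was higher.

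Of all tested genes 69.7% were called, 34.8% being lower and 34.9% higher in sh-circFTO, so that 6 calls among 9 genes (66.7%) is close to the background. The share called lower was also 66.7% among the members. Their median log2 fold change was -0.22, beside 0.0012 over all tested genes. Their median absolute log2 fold change was 0.22, beside 0.40 over all tested genes, and 0 of 9 members changed by 2-fold or more with a call, beside 14.7% of tested genes. The groups did not overlap for 6 members, beside 71.5% of tested genes.

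**Figure D1:**
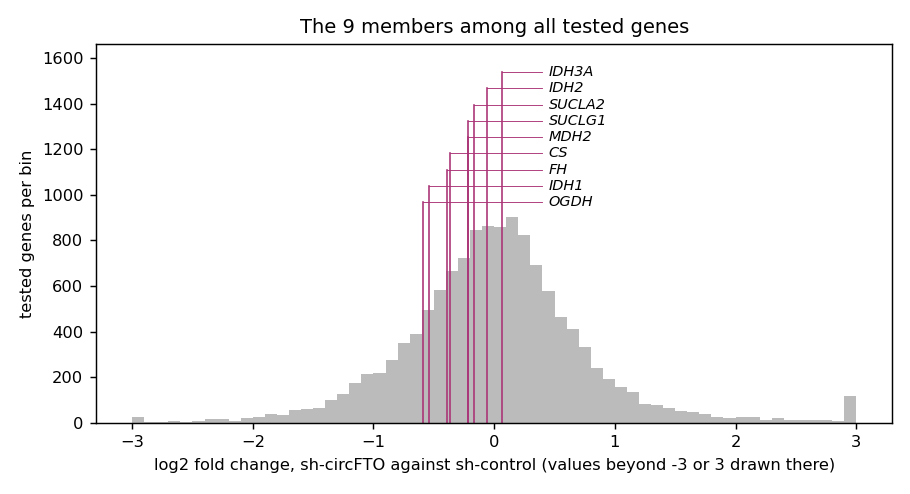
Histogram of the log2 fold change of sh-circFTO against sh-control over 12865 tested genes (TMM scaling), with a vertical line for each of the 9 TCA cycle genes. The members lie between -0.59 (OGDH) and 0.07 (IDH3A), inside the body of the distribution.

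Total counts ran from 13361333 to 16178079 per library. Directions here are relative to the bulk of genes, by TMM scaling; with library size alone the median log2 fold change over all tested genes was 0.15. The level of FTO was 57.4 ± 1.89 CPM in sh-control, against 57.1 ± 1.97 CPM in sh-circFTO (SD, n = 3 each). Counts per gene do not measure circFTO, so the knockdown itself was not checked here. All 12 hepatocyte and HepG2 markers were detected, albumin among them, 11 lower and 1 higher in sh-circFTO, with a summed level of 26179 to 26526 CPM in sh-control, against 15963 to 16100 CPM in sh-circFTO. Among 5 proliferation markers 4 were lower, with a summed level of 1937 to 1955 CPM and 1056 to 1071 CPM. The summed level of 5 endothelial markers was 9.77 to 14.5 CPM in sh-control, against 63.0 to 65.9 CPM in sh-circFTO, where TIE1 alone averaged 51.4 CPM. PECAM1 averaged 7.65 CPM in sh-control, against 12.2 CPM in sh-circFTO. TIE1 and PECAM1, the only endothelial markers tested, were both called higher, and KDR was at 0 counts in all libraries. Of 5 macrophage markers PTPRC and CD163 were at 0 counts, and the sum, nearly all LYZ, was 954 to 1058 CPM and 198 to 201 CPM. The 6 fibroblast markers, with ACTA2 the only one tested, summed to 75.4 to 84.5 CPM and 73.4 to 79.7 CPM. The 5 cholangiocyte markers summed to 1272 to 1352 CPM and 1658 to 1663 CPM, with KRT19 the only one called higher and 3 (SOX9, EPCAM and SPP1) lower of 4 tested. Beside these marker calls, 34.8% of all tested genes were called lower and 34.9% higher. The part of the marker shifts in the changes of the TCA genes was not tested.

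Promoter windows are shown for 4 members, CS and FH from the genes called lower, and IDH3A and SUCLA2, which were not called and hold the only motif matches among the members' windows. The windows span 250 bases before to 50 bases after the RefSeq start (GRCh38.p14), written 5′ to 3′ on the gene's strand. CS is chr12:56300281-56300580 on the minus strand, FH is chr1:241519706-241520005 on the minus strand, IDH3A is chr15:78149112-78149411 on the plus strand and SUCLA2 is chr13:48001224-48001523 on the minus strand. Capitals mark a match to a searched motif.
CS: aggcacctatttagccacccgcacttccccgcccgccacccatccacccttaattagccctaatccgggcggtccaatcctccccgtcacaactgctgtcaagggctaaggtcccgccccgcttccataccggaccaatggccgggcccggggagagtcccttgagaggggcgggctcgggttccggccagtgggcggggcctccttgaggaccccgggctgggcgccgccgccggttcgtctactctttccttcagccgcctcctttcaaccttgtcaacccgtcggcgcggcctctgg
FH: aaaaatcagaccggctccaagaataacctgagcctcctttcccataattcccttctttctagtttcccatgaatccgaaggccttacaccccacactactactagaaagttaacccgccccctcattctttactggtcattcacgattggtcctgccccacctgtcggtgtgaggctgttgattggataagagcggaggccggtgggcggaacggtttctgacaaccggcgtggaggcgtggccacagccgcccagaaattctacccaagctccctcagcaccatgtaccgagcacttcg
IDH3A: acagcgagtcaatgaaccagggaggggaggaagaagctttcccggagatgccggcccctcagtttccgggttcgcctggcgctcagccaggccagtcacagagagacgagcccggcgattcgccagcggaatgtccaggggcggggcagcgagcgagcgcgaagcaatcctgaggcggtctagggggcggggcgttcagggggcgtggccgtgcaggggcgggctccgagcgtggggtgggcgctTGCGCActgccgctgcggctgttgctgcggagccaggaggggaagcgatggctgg
SUCLA2: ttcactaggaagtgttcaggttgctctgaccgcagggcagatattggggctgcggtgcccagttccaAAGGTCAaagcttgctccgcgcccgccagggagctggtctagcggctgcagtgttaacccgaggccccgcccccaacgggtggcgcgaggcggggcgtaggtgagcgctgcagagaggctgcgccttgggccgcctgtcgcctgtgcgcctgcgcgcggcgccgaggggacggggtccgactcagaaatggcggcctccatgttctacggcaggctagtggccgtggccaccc
Short motifs were searched on both strands, the MYC E-box CACGTG, the NRF1 core TGCGCA and the ERR core AAGGTCA, and no matches overlapped. Windows were at hand for 8 of the 9 members, 9 windows in all because IDH1 has 2 starts. OGDH had no window. The windows of IDH3A, IDH2, IDH1, SUCLG1 and SUCLA2 lie inside the full extent of the gene given below. Starts further upstream in these genes were therefore not searched. CACGTG was in 0 of the 9 windows and in 7.26% of 35116 windows genome-wide. TGCGCA was in 1 (IDH3A) and in 8.24% genome-wide, and AAGGTCA was in 1 (SUCLA2) and in 3.92% genome-wide. A match is a stretch of letters and not a measured binding site, and its absence concerns these windows alone.

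Levels can be compared between genes only per length, for which the deposited FPKM (counts divided by exonic length and library total) were used. In sh-control IDH1 was highest at 102 ± 4.26 FPKM, followed by IDH2 (61.2 ± 2.37), MDH2 (51.5 ± 1.30) and CS (47.7 ± 2.57), all SD over n = 3. SUCLG1 (16.5 ± 0.792 FPKM) and OGDH (11.8 ± 0.725) came next, and FH (6.37 ± 0.258), SUCLA2 (4.61 ± 0.639) and IDH3A (3.64 ± 0.0493) were lowest. MDH2 and CS did not differ beyond their spread, since the lowest MDH2 library (50.4 FPKM) was below the highest CS library (50.6). The order of the means was the same in sh-circFTO, where IDH1 was at 77.3 ± 1.29 FPKM and IDH3A at 4.20 ± 0.266, but there SUCLA2 (4.56 ± 0.387) and IDH3A overlapped.

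The exonic length used for these values joins the exons of all transcripts. It was 5.20 times the longest principal coding transcript in GENCODE 29 for FH and 4.05 times for SUCLA2. For SUCLG1 it was 2.82 times that transcript, but for IDH2 only 1.03 times. Dividing by the principal transcript instead, a choice made after the data were seen, gave IDH1 196, CS 103, MDH2 84.9, IDH2 63.3 and SUCLG1 46.6 on the same scale in sh-control. FH followed at 33.2, SUCLA2 at 18.7, OGDH at 14.7 and IDH3A at 6.01. The places of CS, IDH2, FH, SUCLA2 and OGDH in the order therefore depended on the length, while IDH1 stayed highest and IDH3A lowest under both.

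CS encodes citrate synthase, which joins acetyl-CoA and oxaloacetate at the entry of the cycle. On GRCh38 it lies on chromosome 12 from 56271699 to 56300391. Its level in CPM (counts scaled by library total and TMM factor) was 312, 341 and 310 CPM in the sh-control libraries, against 253, 245 and 249 CPM in the sh-circFTO libraries. The groups did not overlap, and the sh-circFTO libraries lay close together. The log2 fold change came to -0.37 (SE 0.0421, edgeR adjusted p = 7.20e-09), and -0.22 with library size only.

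Isocitrate is oxidised to alpha-ketoglutarate by separate enzymes. IDH3, the NAD-dependent enzyme of the cycle, has a catalytic subunit from IDH3A (chromosome 15, 78131498 to 78171945) and partner subunits from IDH3B and IDH3G. IDH3A was at 26.1, 25.7 and 26.5 CPM in sh-control, against 26.1, 29.3 and 26.4 CPM in sh-circFTO, and the groups overlapped. Its log2 fold change was 0.07 with a 95% interval of -0.10 to 0.24 (edgeR adjusted p = 0.490), and without sh-circFTO replicate 2, its highest library, it was 0.01. With library size only it was called higher, at 0.21 (adjusted p = 0.0249). Antisense to IDH3A lies CIB2, which held 108 counts in sh-control, against 173 in sh-circFTO where IDH3A held 1143 and 1265; whether the counting used strand is not given, so reads of the overlap cannot be told apart.

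Both partner subunits were called higher. IDH3B was at 89.0 ± 2.07 CPM in sh-control, against 114 ± 7.14 CPM in sh-circFTO (log2 fold change 0.36, SE 0.0526, edgeR adjusted p = 6.35e-07), and IDH3G at 20.2 ± 0.995 and 27.9 ± 1.62 CPM (0.47, SE 0.0879, adjusted p = 2.84e-05). The ratio of IDH3A to IDH3B counts was 0.291, 0.296 and 0.292 in sh-control, against 0.243, 0.260 and 0.217 in sh-circFTO. The ratio of IDH3A to IDH3G counts was 1.36, 1.22 and 1.30 in sh-control, against 0.918, 1.12 and 0.903 in sh-circFTO. In both ratios every sh-circFTO library lay below every sh-control library.

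IDH2 and IDH1 are NADP-dependent isocitrate dehydrogenases, IDH2 in mitochondria and IDH1 outside them. IDH2 (chromosome 15, 90083045 to 90102477) was at 172, 186 and 181 CPM in sh-control, against 167, 177 and 173 CPM in sh-circFTO. These groups overlapped, and the log2 fold change was -0.06 (95% interval -0.15 to 0.03, edgeR adjusted p = 0.253), turning to 0.09 with library size only (adjusted p = 0.0719). IDH1 (chromosome 2, 208236229 to 208266074) was at 506, 479 and 523 CPM in sh-control, against 339, 349 and 348 CPM in sh-circFTO. Every sh-circFTO library of IDH1 lay far below every sh-control library. The log2 fold change of IDH1 was -0.54 (SE 0.0397, edgeR adjusted p = 6.07e-13), and -0.40 with library size only.

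The ratio of IDH1 to IDH2 counts within a library was 2.95, 2.57 and 2.90 in sh-control, against 2.03, 1.97 and 2.01 in sh-circFTO. Its log2 value differed between groups by -0.48 (SE 0.0626), and the 2-sided exact permutation test gave p = 0.1, its smallest possible value with 3 libraries a group. IDH1 took 34.2% ± 1.26 of the counts of the 9 members in sh-control, against 29.9% ± 0.319 in sh-circFTO, and IDH2 took 12.2% ± 0.451 and 14.9% ± 0.353.

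**Figure D2:**
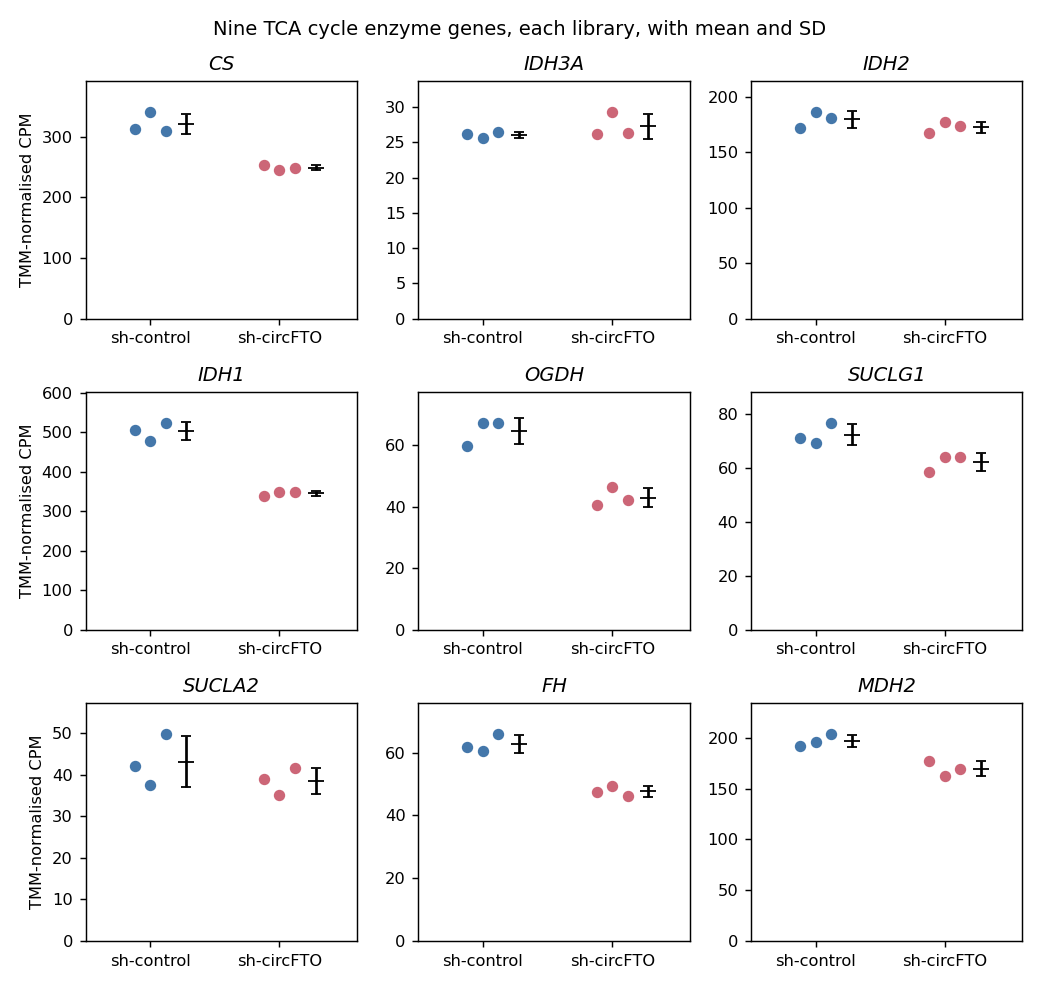
TMM-normalised CPM (vertical axis, from 0) of each of the 9 genes in the 3 sh-control (blue) and 3 sh-circFTO (red) libraries; black marks give the mean and SD. The groups are apart for CS, IDH1, OGDH, SUCLG1, FH and MDH2 and overlap for IDH3A, IDH2 and SUCLA2.

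OGDH encodes the E1 subunit of the alpha-ketoglutarate dehydrogenase complex, which makes succinyl-CoA; DLST and DLD encode its E2 and E3 subunits. OGDH (chromosome 7, 44606572 to 44709066) was at 59.8, 67.0 and 67.1 CPM in sh-control, against 40.6, 46.3 and 42.0 CPM in sh-circFTO. Its groups were well apart, and its log2 fold change was -0.59 (SE 0.0672, edgeR adjusted p = 6.85e-09). The difference from IDH1 (-0.54) was smaller than this SE, and without sh-control replicate 2 IDH1 (-0.58) exceeded OGDH (-0.56) in size. With library size only OGDH was at -0.44. DLST fell too, from 114 ± 1.90 to 74.5 ± 5.09 CPM (log2 fold change -0.61, SE 0.0540, edgeR adjusted p = 3.89e-11). DLD, which also serves the pyruvate dehydrogenase complex, was at 96.6 ± 5.82 and 91.6 ± 6.22 CPM and did not pass the test (log2 fold change -0.08, edgeR adjusted p = 0.240).

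The ratio of OGDH to DLST counts was 0.534, 0.590 and 0.580 in sh-control, against 0.591, 0.590 and 0.551 in sh-circFTO, groups that overlapped, with a log2 difference of 0.02 (SE 0.0555, exact permutation p = 0.5). The ratio of OGDH to DLD counts was 0.615, 0.741 and 0.658 in sh-control, against 0.454, 0.533 and 0.426 in sh-circFTO, a log2 difference of -0.51 (SE 0.124). OGDHL, the paralogue of OGDH, did not pass the filter on low values and held 299 counts in the sum of sh-control and 91 in that of sh-circFTO. By the root mean square difference of centred log2 CPM over the 6 libraries, the genes most like OGDH were ADAL (0.0294), ZNF277 (0.0305) and TBC1D24 (0.0397), and 453 genes lay within 0.1.

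Succinyl-CoA ligase converts succinyl-CoA to succinate. SUCLG1 encodes its alpha subunit, and SUCLA2 and SUCLG2 encode alternative beta subunits for ADP and GDP. SUCLG1 (chromosome 2, 84423528 to 84460045) was at 71.0, 69.3 and 76.5 CPM in sh-control, against 58.4, 64.1 and 64.1 CPM in sh-circFTO. The groups did not overlap but came close, between 64.1 and 69.3 CPM. The log2 fold change came to -0.21 (SE 0.0598, edgeR adjusted p = 0.00225), and the call was lost with library size only (-0.07, adjusted p = 0.304).

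SUCLA2 (chromosome 13, 47745736 to 48037968) was at 42.1, 37.5 and 49.7 CPM in sh-control, against 38.9, 35.1 and 41.5 CPM in sh-circFTO. It varied most among the 9 within sh-control, with an SD of 14.2% of the mean, and the groups overlapped. Its log2 fold change came to -0.16 (95% interval -0.34 to 0.01, edgeR adjusted p = 0.0889). It was called lower without sh-control replicate 2 (-0.26, adjusted p = 0.00621) and without sh-circFTO replicate 3 (-0.22, adjusted p = 0.0471), and it was -0.05 without sh-control replicate 3, its highest library. Because the strand setting of the counting is not given, reads where other genes overlap SUCLA2 cannot be assigned, and its value is uncertain.

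SUCLG2 was at 105 ± 3.85 and 94.7 ± 4.13 CPM (log2 fold change -0.14, SE 0.0515, edgeR adjusted p = 0.0143). Its call was lost with library size only (0.00098, adjusted p = 0.987), without sh-control replicate 3 (-0.11, adjusted p = 0.0626) and without sh-circFTO replicate 1 (-0.11, adjusted p = 0.0992). The ratio of SUCLA2 to SUCLG2 counts was 0.408, 0.369 and 0.456 in sh-control, against 0.433, 0.359 and 0.431 in sh-circFTO. The ratio of SUCLA2 to SUCLG1 counts was 0.593, 0.542 and 0.650 in sh-control, against 0.666, 0.547 and 0.647 in sh-circFTO. Both ratios overlapped between the groups, with exact permutation p = 1 and p = 0.6.

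FH encodes fumarate hydratase, which makes malate from fumarate. FH (chromosome 1, 241497511 to 241519799) was at 61.7, 60.5 and 65.8 CPM in sh-control, against 47.5, 49.4 and 46.0 CPM in sh-circFTO. The highest sh-circFTO library lay well below the lowest sh-control library. The log2 fold change came to -0.39 (SE 0.0621, edgeR adjusted p = 1.96e-06), and -0.25 with library size only.

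MDH2 encodes the mitochondrial malate dehydrogenase, which returns malate to oxaloacetate. MDH2 (chromosome 7, 76048051 to 76067508) was at 192, 196 and 204 CPM in sh-control, against 177, 163 and 169 CPM in sh-circFTO. The groups did not overlap, though the change was small, with a log2 fold change of -0.22 (SE 0.0439, edgeR adjusted p = 7.21e-05) that lost its call with library size only (-0.07, adjusted p = 0.143). MDH1, the cytosolic malate dehydrogenase, went the other way, from 221 ± 15.4 to 251 ± 4.41 CPM (log2 fold change 0.18, SE 0.0453, edgeR adjusted p = 0.000714). The ratio of MDH2 to MDH1 counts was 0.871, 0.953 and 0.860 in sh-control, against 0.714, 0.637 and 0.682 in sh-circFTO, and the groups did not overlap. The ratio of FH to MDH2 counts was 0.321, 0.308 and 0.323 in sh-control, against 0.268, 0.303 and 0.272 in sh-circFTO, groups that came close without overlapping.

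**Figure D3:**
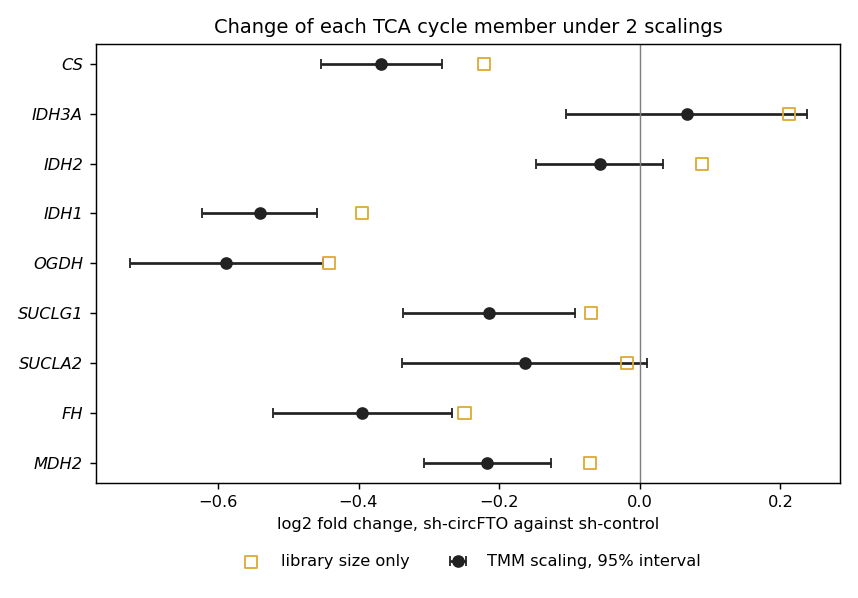
Log2 fold change of sh-circFTO against sh-control (horizontal axis) for the 9 genes; filled points with bars give the TMM-scaled value and its 95% interval, open squares show library size alone. CS, IDH1, OGDH and FH lie below 0 under both, while IDH2 turns from -0.06 to 0.09, and SUCLG1 and MDH2 move to -0.07.

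Ratios are given for 9 pairs of genes. In 6 of them the groups did not overlap: IDH1 to IDH2, IDH3A to IDH3B, IDH3A to IDH3G, OGDH to DLD, MDH2 to MDH1 and FH to MDH2. For each of these the exact permutation p was 0.1 and the value adjusted over these 9 pairs was 0.15, so that none passes 0.05 and none could with 3 libraries a group. All 6 ratios were lower in sh-circFTO, so the first-named gene fell relative to the second. The log2 differences ran from -0.51 (OGDH to DLD) to -0.18 (FH to MDH2). The shared direction depends on which gene was named first, and some pairs share a gene, so they are not separate results. Among single tested genes 71.5% did not overlap between the groups, and the share over other pairs of genes was not computed.

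**Figure D4:**
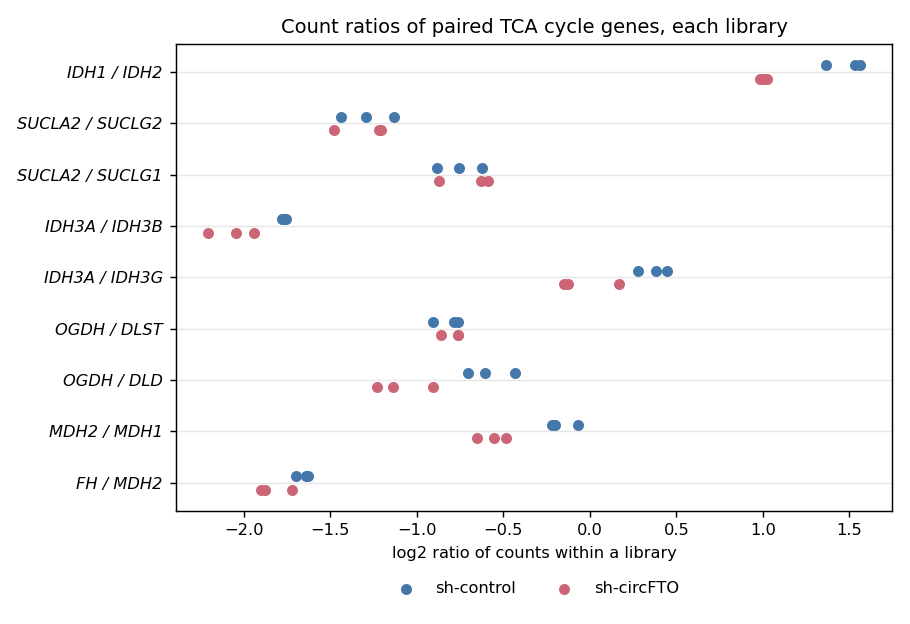
Log2 ratio of the counts of 2 genes within each library (horizontal axis), for 9 pairs, with sh-control in blue and sh-circFTO in red. The groups are apart in 6 pairs and overlap for SUCLA2 to SUCLG2, SUCLA2 to SUCLG1 and OGDH to DLST.

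Beyond the 9 members, the list of the cycle used here has 12 further genes, of which 11 were tested: 4 were called higher, 3 lower and 4 were not called (5 higher and 2 lower with library size only). The share called was 63.6%, while over all tested genes 69.7% were called, 34.9% higher and 34.8% lower. The median log2 fold change of this list was -0.05. SDHD, a membrane anchor subunit of succinate dehydrogenase, fell from 44.6 ± 5.37 to 17.8 ± 0.518 CPM (log2 fold change -1.33, SE 0.0897, edgeR adjusted p = 9.60e-14), the only one of the 20 tested genes of the cycle past 2-fold. The other 3 subunits of that enzyme, SDHA, SDHB and SDHC, were at -0.05, -0.05 and 0.07 and did not pass the test, although SDHC was called higher with library size only (0.22, adjusted p = 0.000154). ACO1, the cytosolic aconitase that also acts as an iron sensor, was called higher at 0.17 (edgeR adjusted p = 0.0243). That call was lost without sh-control replicate 1 (adjusted p = 0.0573), sh-control replicate 3 (adjusted p = 0.0515), sh-circFTO replicate 2 (adjusted p = 0.120) or sh-circFTO replicate 3 (adjusted p = 0.0857), and with every gene of at least 1 count kept (adjusted p = 0.0835).

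**Figure D5:**
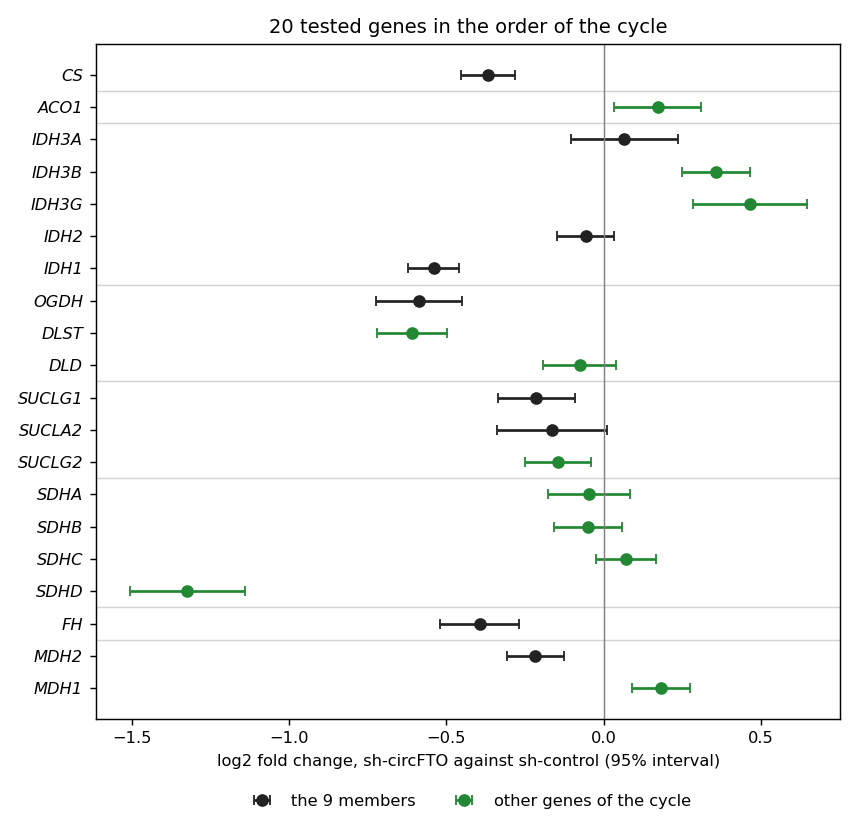
Log2 fold change with 95% interval (TMM scaling) of the 20 tested genes in the order of the cycle from citrate synthase to malate dehydrogenase, with the 9 members in black and the other genes in green; grey lines part the steps. SDHD stands lowest at -1.33 and IDH3G highest at 0.47.

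Pyruvate enters the cycle through the mitochondrial pyruvate carrier and the pyruvate dehydrogenase complex. Of 12 genes in this list 11 were tested, 3 were higher and 6 lower. That is 81.8% called, beside 69.7% of all tested genes, and 54.5% called lower, beside 34.8%. PDHB, the beta subunit of the complex's E1 enzyme, fell from 72.2 ± 5.56 to 30.5 ± 0.694 CPM (log2 fold change -1.24), and the carrier subunit MPC2 fell from 51.6 ± 2.71 to 30.04 ± 3.49 CPM (-0.78). DLAT, the E2 enzyme, rose from 78.0 ± 2.53 to 108 ± 2.21 CPM (0.48). PDP1, a phosphatase that switches the complex on, rose from 4.55 ± 0.639 to 19.5 ± 1.82 CPM (2.10). The adjusted p of these 4 genes ran from 8.24e-16 to 1.93e-09 by edgeR's quasi-likelihood test.

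Of 15 genes whose enzymes fill or drain the cycle 11 were tested, 3 were higher and 7 lower, with a median log2 fold change of -0.37. In this list 90.9% were called, beside 69.7% of all tested genes, and 63.6% were called lower, beside 34.8%. The list was chosen with earlier results of these data known, so these shares are not a test of it. PCK2, which makes phosphoenolpyruvate from oxaloacetate in mitochondria, changed by -1.68 on the log2 scale, GPT2, the mitochondrial alanine transaminase, by -1.10 and GLUD1, which makes alpha-ketoglutarate from glutamate, by -0.92. GLUD1 has a near-identical copy in GLUD2, so both counts are uncertain. ACLY, which splits exported citrate to acetyl-CoA in the cytosol, rose from 356 ± 7.51 to 534 ± 7.32 CPM (0.58). The adjusted p of these 4 genes ran from 3.24e-24 to 3.13e-14 by edgeR.

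Of 6 carriers of cycle intermediates 5 were tested and 3 were lower (2 with library size only, where SLC25A11 lost its call at adjusted p = 0.131). By edgeR 0 were higher, also at an unadjusted p under 0.05 and by DESeq2. The 60% called is near the 69.7% of all tested genes. All of these calls were lower, beside 34.8% called lower over all tested genes. The citrate carrier SLC25A1 changed by -0.42, the dicarboxylate carrier SLC25A10 by -0.58 and the oxoglutarate carrier SLC25A11 by -0.26, with adjusted p of 1.83e-07, 3.75e-07 and 0.00108 by edgeR, and the aspartate-glutamate carrier SLC25A13 was at -0.07 (adjusted p = 0.223), called lower without sh-control replicate 2 (-0.11, adjusted p = 0.0457).

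Among 5 genes of 2-hydroxyglutarate removal and lipoyl attachment 3 were tested and 2 were lower. None was higher by edgeR, also at an unadjusted p under 0.05, or by DESeq2. The 66.7% called is near the 69.7% of all tested genes. Both calls were lower, beside 34.8% called lower over all tested genes. LIAS, the lipoyl synthase on whose product DLST and DLAT depend, fell from 25.2 ± 0.895 to 11.3 ± 0.161 CPM (log2 fold change -1.16, edgeR adjusted p = 1.50e-11). D2HGDH, which oxidises the D form of 2-hydroxyglutarate, changed by -0.35 (adjusted p = 0.000200 by edgeR), and LIPT1 was at -0.21 (adjusted p = 0.269). ADHFE1 held 0 counts in sh-control, against 1 in sh-circFTO.

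Of 10 regulators of mitochondrial and cycle genes 9 were tested, 2 were higher and 7 lower (6 lower with library size only). All tested regulators were called (100%), beside 69.7% of all tested genes, and 77.8% were called lower, beside 34.8%. This list too was chosen with earlier results of these data known, so these shares are not a test of it. The coactivator gene PPARGC1A fell from 51.9 ± 2.05 to 5.31 ± 0.703 CPM, and TFAM, which packages and transcribes mitochondrial DNA, from 148 ± 11.4 to 83.7 ± 3.59 CPM. MYC changed by -0.57 and HIF1A, a hypoxia-inducible factor subunit, by 0.36 on the log2 scale. The adjusted p of these 4 genes ran from 8.63e-22 to 2.81e-09 by edgeR. PDK1, from the pyruvate list, encodes a kinase that switches the pyruvate dehydrogenase complex off and is a known HIF1A target. It fell from 58.1 ± 2.45 to 38.9 ± 3.86 CPM (log2 fold change -0.58, edgeR adjusted p = 2.64e-08). The activity of HIF1A was not tested. SIRT3 was the other regulator called higher (0.24, edgeR adjusted p = 0.0288), a call lost without sh-control replicate 2 (adjusted p = 0.101) or sh-circFTO replicate 1 (adjusted p = 0.181) and in DESeq2 (adjusted p = 0.0566) or with every gene of at least 1 count kept (adjusted p = 0.0744).

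The 9 members together took 0.140% ± 0.00226 of all counts in sh-control, against 0.121% ± 0.000752 in sh-circFTO. Leaving mitochondrially encoded genes out of the total gave 0.152% ± 0.00263 and 0.130% ± 0.000601. The members' sum is weighted to IDH1 (34.2% of it before and 29.9% after knockdown) and CS (21.9% and 21.6%). Its fall was not shared by every member. By mean FPKM, which is also scaled by library total alone, IDH3A rose from 3.64 to 4.20 with no overlap of the groups. IDH2 rose from 61.2 to 65.0 with overlapping groups, and the means of all other members were lower. Of these lower members, SUCLA2, SUCLG1 and MDH2 also overlapped between the groups in FPKM, while CS, IDH1, OGDH and FH did not. Mitochondrially encoded genes took 7.72% to 8.11% of counts in sh-control, against 6.47% to 6.75% in sh-circFTO. The part of that shift in the members' changes was not tested.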

How the data were processed

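RNA of 6 HepG2 libraries was compared, 3 sh-control and 3 sh-circFTO, grouped by sample title. Per the file headers, the deposited table gives raw counts per Ensembl gene and FPKM computed by the authors; 0 of 363630 FPKM values differed by more than 0.005 from count divided by exonic length and library total. The sources used here name no aligner, counter, strand setting or annotation release. The submitters' processing notes name mouse and older human builds, yet of 60605 genes 58337 were in GENCODE 29 and 56764 of these had both ends within 5000 bp, so coordinates are on GRCh38.

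A gene was tested where 3 or more libraries reached an FPKM of 1 (12865 genes), with edgeR 4.0.16 in R 4.3.3 (quasi-likelihood, TMM, Benjamini-Hochberg over all tested genes, threshold 0.05). Levels are TMM-normalised CPM as mean ± SD over n = 3. Ratios of paired genes used counts plus 0.5 and 2-sided exact permutation tests. The promoter sequences are from RefSeq.

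The fit was also run on simulated data with few changed genes, which does not test the scaling where most genes are called. Small changes were not all recovered there, so a gene not called may still have changed. Libraries of one group differed beyond counting noise (chi-square 2.03 to 4.03 for each degree of freedom), so none was a copy.

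The members and gene lists were chosen with earlier results of these data known. Named were all members, the genes of the pairs, FTO, MYC and, from each list, the 4 genes with the smallest adjusted p and a gene whose group counts are 0; ACO1, SDHA, SDHB, SDHC, PDK1, SIRT3, OGDHL and GLUD2 were added after their values were seen, as was CIB2, which overlaps a member. Some genes of the lists, a further pair that was also computed, and an overlapping gene are not reported here; the adjustment runs over the 9 reported pairs. Alternatives were library size only, median-of-ratios scaling, other filters, DESeq2 1.42.0, the replicate number as a block, each library left out and, added later, another gene length.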

Additional observations from a re-analysis of the deposited data

How the results depend on the processing

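The calls of CS, IDH1, OGDH and FH (lower) held under every alternative run, and those of MDH2 and SUCLG1 under all but library size only. That scaling turned IDH2 to 0.0883, gave IDH3A 0.21 with a call (1 member higher) and left SUCLG1 at -0.0692 and MDH2 at -0.0713 without one; the cause is its construction, which shifts all genes. It called 5700 genes higher and 3471 lower (62.2% of calls higher, against 50.1%). SUCLA2 was called lower with every gene of at least 1 count kept (-0.18) and with the replicate block (-0.16); the cause was not tested. Keeping genes with FPKM of at least 5 left 7 members, 6 of them lower.

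Same-numbered libraries did not deviate together (correlations -0.03 to 0.02), so no pairing by number was seen. With 3 libraries a group this does not exclude a pairing. The replicate block called 4509 genes higher and 4490 lower, and 7 members lower.

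Leaving out each library gave 6 to 7 members lower and 0 higher, 4207 to 4384 genes higher and 4216 to 4380 lower. The log2 fold changes ranged over -0.259 to -0.0492 for SUCLA2, 0.0102 to 0.0954 for IDH3A and -0.0934 to -0.0327 for IDH2. The log2 ratios ranged over -0.0866 to 0.0761 for SUCLA2 to SUCLG2, -0.00646 to 0.147 for SUCLA2 to SUCLG1 and -0.0204 to 0.0569 for OGDH to DLST, all changing sign. Without mitochondrially encoded genes the members' share of counts differed by -0.0217 percentage points.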
